A study of Caenorhabditis elegans with 8 samples.

Results

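The genes described here make and move the monoamine transmitters of *Caenorhabditis elegans*: *tph-1*, *cat-2*, *bas-1*, *tdc-1* and *tbh-1* for synthesis, *cat-1* for vesicle loading, and *mod-5* and *dat-1* for reuptake. They were found by matching the sequence name or RefSeq transcript of each array probe to these 8 genes, which gave 15 of the 43603 probes that are not controls, for 8 of the 19794 genes that could be named. Probe letters were not given in the files used here and no sequence is shown. Transcripts were measured in embryos of the pretzel stage, shortly before hatching, when the worm is folded up in its shell. The mutants carried *aptf-1(gk794)*, a deletion allele of the AP2 transcription factor gene *aptf-1* that had been backcrossed to N2, and the controls were the wild type N2. Each genotype had 4 samples of about 3000 hermaphrodite embryos, picked by hand from plates kept at 21.5°C according to the labels. Total RNA of whole embryos was hybridised in 1 colour, 1 sample per array.

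Monoamines are made from aromatic amino acids in few neurons. Serotonin is formed from tryptophan by a hydroxylase and a decarboxylase, and dopamine is formed from tyrosine by another hydroxylase and the same decarboxylase. Tyramine is formed by direct decarboxylation of tyrosine, and octopamine by hydroxylation of tyramine. A vesicular transporter packs all of them, and plasma membrane transporters take serotonin or dopamine back up. In worms these transmitters act on egg laying, feeding, locomotion and arousal, and the questions were which systems could be detected before hatching and whether the *aptf-1* mutation changed them.

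All 15 probes of the 8 genes were marked well above background on all 8 arrays by the scanner's software. By this mark a signal was detected for each enzyme and each transporter in both genotypes. This took in serotonin, dopamine, tyramine and octopamine, though *mod-5* was only narrowly above its background. Detection was common on these arrays: 76.5% of all probes were well above background on all 8, and 16188 of 17063 genes tested had such a probe. So did 2 of 3 vitellogenin genes taken as markers of adult contents, so the mark alone does not show that a gene is expressed. For none of the 8 genes did a difference between the genotypes pass the threshold. Calls required a fold change of 1.5 and an adjusted p under 0.05, from limma with Benjamini-Hochberg adjustment over the 35726 probes tested. Of the 15 probes 0 were called, against 18 called over all of them (0.0504%). Of the 8 gene means 0 were called, against 7 of 17063 genes (0.041%), and 0 probes and 0 genes reached an unadjusted p under 0.05, against 1051 probes and 553 genes. At so low a background a count of 0 among 8 genes is no result about them, and the intervals given with each gene bound the change of its signal. For *mod-5*, whose spot was 1.39 to 2.59 times its background, how far the signal follows the transcript was not tested.

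The arrays measured the targeted gene as the labels say: the signal of *aptf-1* in the mutant was 24.1% of that in N2 (log2 fold change -2.05, standard error 0.14, adjusted p = 0.00203 from limma), and that of the neuropeptide gene *flp-11* was 34.4%. The share of probes well above background was 79.4% to 83.1% per array, 0 spots were saturated, and arrays correlated with each other at 0.976 to 0.994. The arrays lay on 2 slides with 2 arrays of each genotype on each slide. The study's methods call them biological samples, collected by hand, but no source used here names separate cultures, and p-values measure the spread between these samples. The number of arrays limits the precision. The mean log2 level of 8 pan-neuronal genes was 0.78 to 0.97 in the N2 samples and 0.79 to 0.88 in the mutant samples, with 0 of 8 called. The mean over 3 epidermal markers was -0.50 to -0.06 in N2 and -0.12 to 0.35 in the mutant, also with 0 of 3 called, and any part of the latter in the values given here was not tested.

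**Figure D1:**
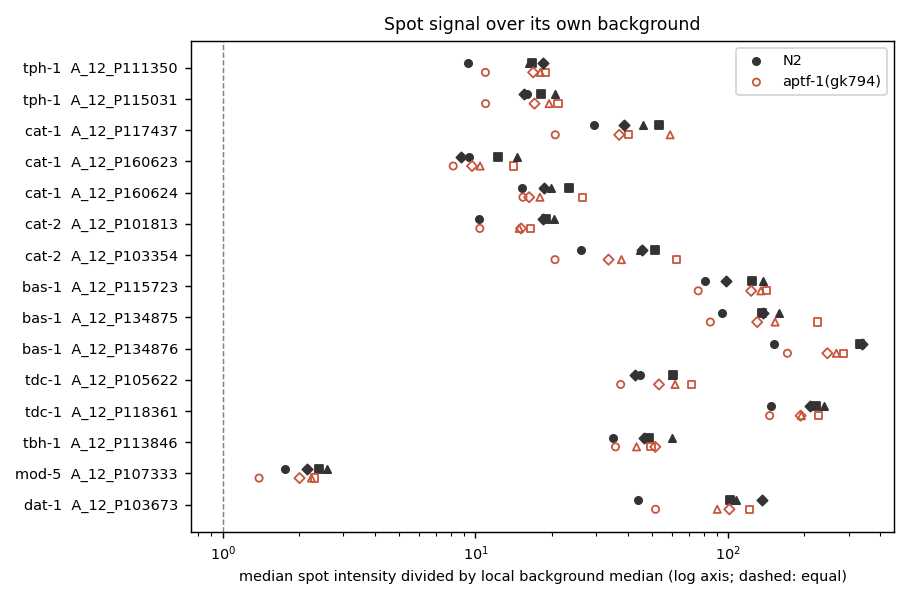
Median spot intensity divided by the median of the local background (log axis) for each probe of the 8 genes on each array, N2 filled and *aptf-1(gk794)* open, with a marker shape per replicate. The probe of *mod-5* lies closest to its background, at 1.39 to 2.59 times, and the highest ratios belong to 1 probe each of *bas-1* and *tdc-1*.

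The margin over background differed widely between probes. For the 3 probes of *bas-1* the ratio of the spot to its local background was 76.1 to 142, 85.0 to 226 and 152 to 339. The 2 probes of *tdc-1* differed, at 37.5 to 71.6 and 146 to 239. *dat-1* was at 43.8 to 136 and *tbh-1* at 34.9 to 60.0. Probes of *tph-1*, *cat-1* and *cat-2* ranged from 8.16 to 62.2, which reaches into the range of *tbh-1* and *dat-1*. The serotonin reuptake transporter gene *mod-5* stood apart, with a ratio of 1.39 to 2.59 and a background-corrected intensity of 27.1 to 63.1. Its signal was thus only narrowly above background. These ratios say how safely a probe was detected. They do not rank the genes, because probes differ in how strongly they bind. The lowest ratio of a probe came from mutant replicate 1 for 9 of the 15 probes and from N2 replicate 1 for the other 6, the arrays with the lowest overall intensity.

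Among the enzymes, *tph-1* encodes tryptophan hydroxylase, the step that commits a neuron to serotonin. Its 2 probes (ZK1290.2b.1 and ZK1290.2a) gave a mean log2 intensity, relative to the 75th percentile of the array, of -2.45, -2.60, -2.58 and -2.51 in N2 replicates 1 to 4. In the mutant it was -2.64, -2.53, -2.38 and -2.48. The groups lay on top of each other, with the lowest and the highest sample both from the mutant. Mutant minus N2 gave a log2 fold change of 0.03 (standard error 0.09), or 102% of N2 with a 95% interval of 88.6% to 118%. A 1.5-fold change of the *tph-1* signal in whole embryos lay outside that interval in either direction.

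*cat-2* encodes tyrosine hydroxylase, the committed step to dopamine. The mean of its 2 probes (both B0432.5b) was -1.78, -1.60, -1.70 and -1.52 in N2 and -2.04, -1.61, -1.76 and -1.74 in the mutant. Mutant replicate 1 was the lowest sample and the other mutant samples lay within the N2 range. *cat-2* had the largest difference of the 8 genes, a log2 fold change of -0.14 (standard error 0.11), or 91.1% of N2 with a 95% interval of 76.0% to 109%. It was not past the threshold (exact two-sided permutation p = 0.257), with -0.13 on slide 1 and -0.14 on slide 2. Without mutant replicate 1 it was -0.05, smaller than that of *mod-5* in the same fit (0.16), and it was -0.09 without N2 replicate 4.

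*bas-1* encodes the aromatic amino acid decarboxylase that completes both serotonin and dopamine. The mean of its 3 probes was 0.73, 0.77, 0.69 and 0.81 in N2 and 0.77, 0.94, 0.78 and 0.83 in the mutant. The mutant samples lay from the middle of the N2 range upward, and the groups overlapped. The difference was 0.08 on the log2 scale (standard error 0.08, exact permutation p = 0.114), or 106% of N2 with a 95% interval of 93.0% to 121%. Probe A_12_P134876 gave 0.00 and the other 2 probes 0.12 each, so the gene mean rests on the latter.

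In the tyramine and octopamine branch, *tdc-1* encodes tyrosine decarboxylase, which makes tyramine, and its 2 probes (K01C8.3a and K01C8.3b) gave a mean of 0.52, 0.40, 0.41 and 0.47 in N2. In the mutant the mean was 0.44, 0.56, 0.46 and 0.51, again within or close to the N2 range. Its log2 fold change was 0.04 (standard error 0.08), or 103% of N2 with a 95% interval of 91.0% to 117%. This was the most even of the 8 genes: the standard deviation within the genotypes was 0.05, and 1.02% of all genes tested had a lower one.

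*tbh-1* encodes tyramine beta-hydroxylase, which turns tyramine into octopamine, and has 1 probe. It measured -0.91, -1.01, -0.87 and -0.76 in N2 and -0.82, -0.95, -1.10 and -0.86 in the mutant. Both groups spread over the same levels, with mutant replicate 3 lowest and N2 replicate 4 highest. For *tbh-1* the log2 fold change was -0.05 (standard error 0.10), or 96.8% of N2 with a 95% interval of 82.8% to 113%, and its sign differed between the slides (0.07 and -0.17).

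**Figure D2:**
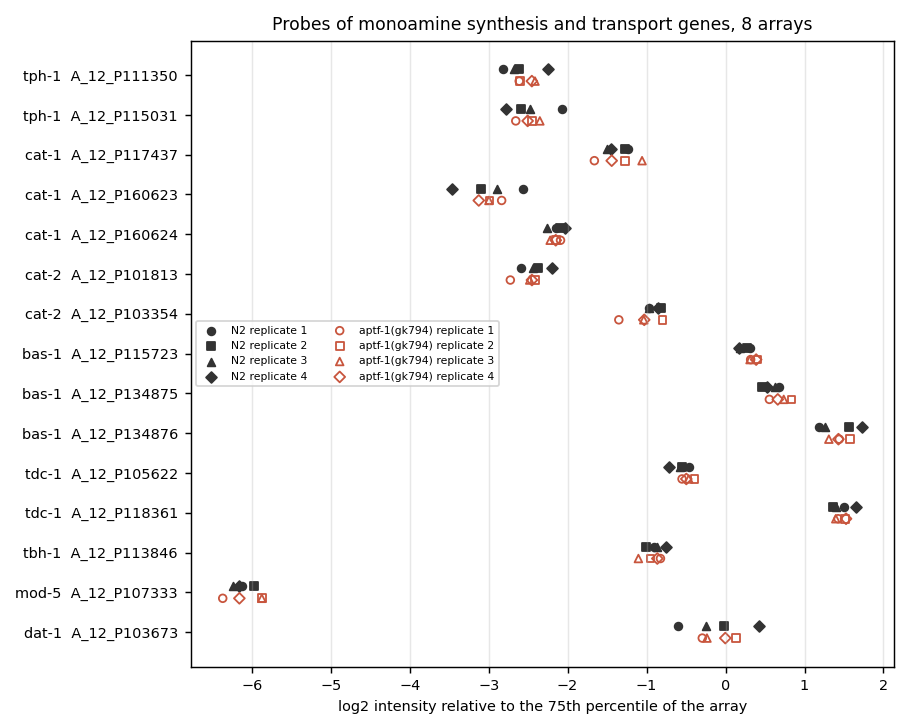
Log2 intensity relative to the 75th percentile of the array for the 15 probes of the 8 genes on the 8 arrays, N2 filled above and *aptf-1(gk794)* open below, with a marker shape per replicate. The genotypes overlap on every probe, and the 4 N2 samples of *dat-1* spread from -0.61 to 0.42.

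Among the transporters, *cat-1* encodes the vesicular monoamine transporter, used by all of these neurons. The mean of its 3 probes (all W01C8.6a) was -1.98, -2.15, -2.22 and -2.32 in N2 and -2.20, -2.14, -2.09 and -2.24 in the mutant. The mutant samples all lay inside the N2 range. The difference between the means was 0.00 on the log2 scale (standard error 0.10), or 100.2% of N2 with a 95% interval of 85.9% to 117%. It gave the smallest difference of the 8, and its sign turned in 7 of 20 alternative fits. Whether the value of this 1 gene stands for the monoamine neurons as a whole was not tested. In RNA of whole embryos, fewer cells of a type and less RNA per cell cannot be told apart.

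*mod-5* encodes the serotonin reuptake transporter. Its 1 probe measured -6.13, -5.97, -6.24 and -6.16 in N2 and -6.37, -5.87, -5.87 and -6.16 in the mutant. Mutant samples were both the lowest and the highest, and replicate 1, the lowest, had the dimmest array. Its log2 fold change was 0.06 (standard error 0.13), with a 95% interval of 84.3% to 128% of N2.

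*dat-1* encodes the dopamine reuptake transporter, made only in dopamine neurons, and was by far the least even of the 8 genes. Its 1 probe measured -0.61, -0.02, -0.24 and 0.42 in N2 replicates 1 to 4, a range of 1.03 on the log2 scale. In the mutant it measured -0.30, 0.13, -0.24 and 0.00, all inside the N2 range. The genotype means were nearly equal, 0.01 apart on the log2 scale (standard error 0.21) or 100.8% of N2, but the 95% interval ran from 72.3% to 140%. Slide 1 gave a difference of 0.23 and slide 2 one of -0.21. The spot was 43.8 to 136 times its background, and 79.2% of all genes tested had a lower standard deviation.

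**Figure D3:**
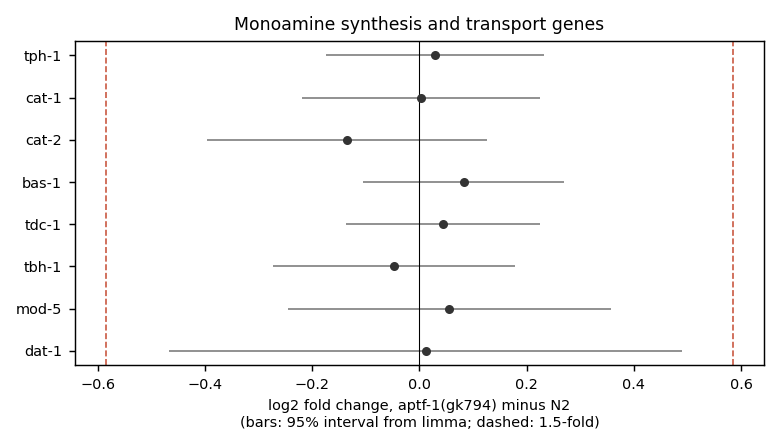
Log2 fold change of the 8 genes, *aptf-1(gk794)* minus N2, as points with 95% intervals from limma as bars, and a fold change of 1.5 in either direction as dashed lines. All 8 intervals cross 0 and lie between the dashed lines, and that of *dat-1* is the widest, from -0.47 to 0.49.

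Across the 8 genes, 6 log2 fold changes were above 0 and 2 below, with a median of 0.02 against -0.02 over all genes tested. The median size of the change was 0.05 on the log2 scale, against 0.09 over all genes. For all 8 genes the 95% interval lay within a fold change of 1.5 in either direction, which held for 73.1% of all genes. In 0 of the 8 genes were the N2 and mutant samples free of overlap, against 2.17% of all genes. The genes with several probes are averages and vary less for that reason, so standard deviations of *tbh-1*, *mod-5* and *dat-1*, with 1 probe each, are not on a par with the others.

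The probes of a gene did not always vary together between samples. The 2 probes of *cat-2* did, with Pearson's r = 0.76 between their deviations from the genotype means over the 8 arrays. The 2 probes of *tph-1*, named for different transcripts, ran against each other at r = -0.65. In N2 replicate 1 the first lay low and the second high, and in N2 replicate 4 the reverse, so that their mean was steadier than either. The probes of *cat-1*, *bas-1* and *tdc-1* had r between -0.43 and 0.34.

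Deviations of the 8 genes were also set against each other. Between samples of one genotype, deviations of *dat-1* had Pearson's r = 0.77 with *cat-2* and 0.73 with *bas-1* over the 8 arrays, and *cat-2* had r = 0.81 with *bas-1*. *cat-1*, which also serves dopamine neurons, ran the other way, with r = -0.76 to *dat-1*. Pairs from different systems reached like values, with *mod-5* at r = 0.72 to *cat-2* and -0.78 to *tbh-1*. Outside the 8 genes, *basl-1* had r = 0.86 with *dat-1* and -0.96 with *cat-1*, and *cat-4* had 0.52 with *dat-1*. These values share the arrays and their scaling, and they are given as a description. The first principal component of the deviations of all genes held 40.4% of their variance, with N2 replicate 1 at one end (-40.2) and N2 replicate 4 at the other (44.0). *dat-1* followed it at r = 0.97, *cat-2* at 0.80, *bas-1* at 0.69 and *cat-1* at -0.67. *tph-1* (-0.01), *tdc-1* (0.03) and *tbh-1* (0.12) did not follow it, and *mod-5* had 0.36. Over all genes the median size of this correlation was 0.58. What this component stands for was not tested.

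**Figure D4:**
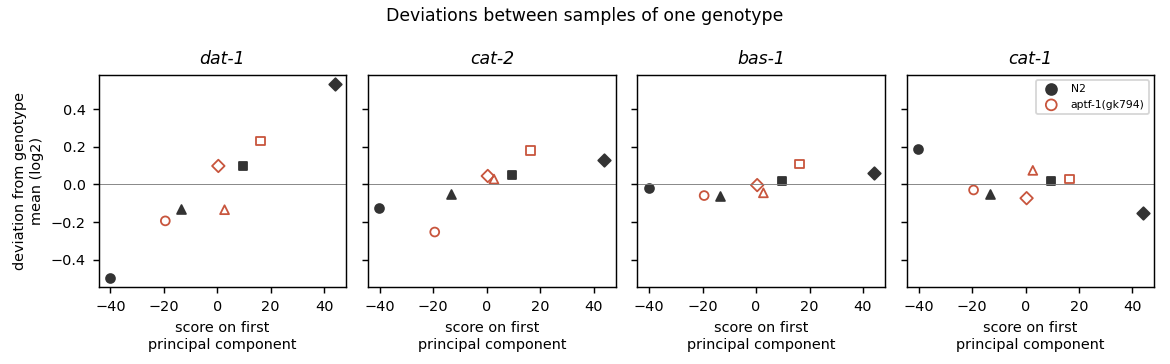
Deviation of *dat-1*, *cat-2*, *bas-1* and *cat-1* from the mean of their genotype (log2) against the score of each array on the first principal component of all genes, N2 filled and *aptf-1(gk794)* open, with a marker shape per replicate. *dat-1* rises along the component from N2 replicate 1 to N2 replicate 4, *cat-2* and *bas-1* rise less steeply, and *cat-1* falls.

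The genes whose deviations were most like those of *dat-1* over the 8 arrays were *sms-5* (r = 0.998), *T04F8.7* (0.994) and *F02D8.4* (0.994). For *cat-1* they were *rbm-26* (0.992), *ssp-10* (0.991) and *rsl-24D1* (0.989), and for *tph-1* *F35E8.1* (0.992), *F44E7.9* (0.967) and *sre-26* (0.967). These are the highest values out of 16932 genes over only 8 arrays, all sharing the same arrays and their scaling. None of these most similar genes belongs to the monoamine lists used here.

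The enzymes around the pathway were also measured. Of 7 genes for cofactor supply and related enzymes, 7 were tested and 0 were called, with log2 fold changes from -0.13 for *basl-1* to 0.33 for *hdl-1*, both related to aromatic amino acid decarboxylases. *hdl-1* was at 0.12 and 0.09 with normexp background correction and between 0.18 (without N2 replicate 3) and 0.41 with an array left out. Its 1 probe was dim, at a mean of -7.48 in N2. *cat-4* encodes GTP cyclohydrolase, which supplies the biopterin cofactor of both hydroxylases, and its difference had the largest standard error among them. Only 2 of its 6 probes passed the filter on dim spots, both well above background on all 8 arrays, while the other 4 were so on 0 or 1 arrays. The mean of the 2 was -3.35, -2.88, -2.98 and -2.07 in N2 and -2.91, -3.53, -2.58 and -2.55 in the mutant. The groups overlapped widely. At a log2 fold change of -0.08 (standard error 0.30) the 95% interval of -0.77 to 0.62 took in a 1.5-fold change in either direction. Of the 4 probes of *basl-1*, which lies next to *bas-1* in the genome, 2 were tested, and their mean was -7.12 to -6.41 in N2 and -7.08 to -6.76 in the mutant, with a standard error of 0.15 for the difference. The value followed the filter on dim probes, from -0.38 with probes well above background on all 8 arrays to 0.05 without a filter, and was -0.0033 without N2 replicate 4.

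Of 8 genes for breakdown enzymes, the amine oxidase and catechol-O-methyltransferase families, 0 were called. *comt-5* was lowest, with -1.11, -1.23, -1.07 and -0.98 in N2 and -1.61, -1.56, -1.43 and -1.07 in the mutant. In the mutant, replicates 1 to 3 lay below every N2 sample and replicate 4 among them. On the log2 scale the mutant was at -0.32 relative to N2 (95% interval -0.62 to -0.02, unadjusted p = 0.039, adjusted p = 0.9997 by limma). With array weights it was -0.03 (adjusted p = 0.976 by limma), and with an array left out it lay between -0.43 and -0.26. *amx-1*, an amine oxidase gene, was highest at 0.15, but at 0.0080 without N2 replicate 4 and 0.32 without N2 replicate 1.

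Receptors mark the cells that listen to the monoamines. Of 20 receptor genes, 19 had a probe that could be named (*dop-6* did not). Of these, 18 had a probe well above background on all 8 arrays, against 16188 of 17063 genes tested. By this mark a signal was detected for receptors of each of the transmitters, at much the same share as over all genes. None was called between the genotypes, with 15 of 19 log2 fold changes below 0 and a median of -0.05. This count and the range of the serotonin receptors take in *ser-1*, which passed the filter only through the brighter N2 group. Over all genes 9380 of 17063 lay below 0, with a median of -0.02. The serotonin receptors ran from -0.34 for *ser-1* to 0.07 for *ser-5*, the dopamine receptors from -0.23 for *lgc-53* to 0.11 for *dop-4*, and the tyramine and octopamine receptors from -0.16 for *octr-1* to 0.12 for *tyra-2*. These ends were not stable: *dop-4* was at 0.01 without N2 replicate 1 and 0.23 without mutant replicate 1, and *tyra-2* turned to -0.14 without N2 replicate 4.

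*ser-1*, a G protein-coupled serotonin receptor gene, was the dimmest of them. Its 1 probe was well above background on all 4 N2 arrays but only 2 mutant arrays, so it was tested only through the group where it is brighter, and no p is given. It measured -7.05, -7.29, -7.38 and -7.49 in N2 and -7.49, -7.81, -7.52 and -7.76 in the mutant. The other 3 mutant samples lay below every N2 sample, and mutant replicate 1 was level with N2 replicate 4. The log2 fold change shrank from -0.34 to -0.02 and -0.05 with normexp background correction. *lgc-53*, a dopamine-gated chloride channel gene, measured -0.89, -1.01, -0.83 and -0.99 in N2 and -1.09, -1.06, -1.37 and -1.11 in the mutant. Every mutant sample lay below every N2 sample, as in either direction for 2.17% of all genes. Its log2 fold change was -0.23 (95% interval -0.46 to -0.0017, unadjusted p = 0.049, adjusted p = 0.9997 by limma). An exact permutation test gave a two-sided p of 0.0286, which 4 samples against 4 cannot go below.

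**Figure D5:**
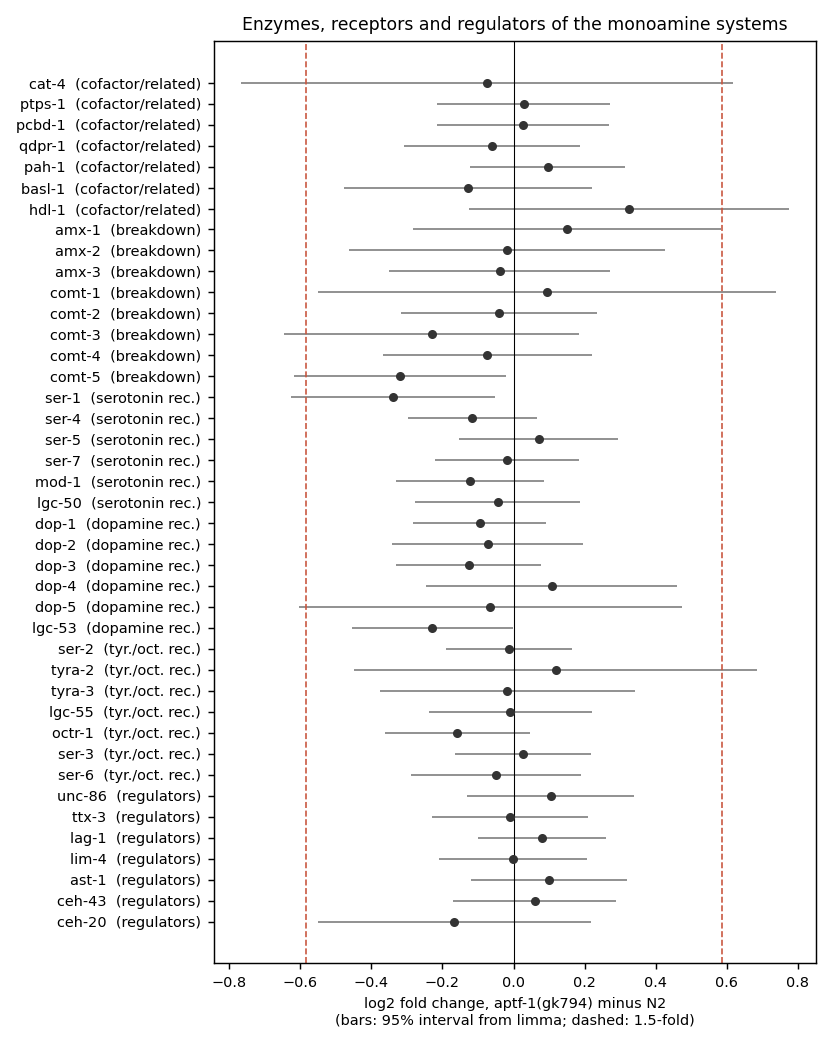
Log2 fold change, *aptf-1(gk794)* minus N2, with 95% intervals from limma, for the cofactor and related enzymes, breakdown enzymes, receptors and regulators of monoamine neurons, with a fold change of 1.5 as dashed lines. The intervals of *comt-5* and *lgc-53* lie below 0 before adjustment, and the interval of *cat-4* is among the widest. The spot of *ser-1* was not well above background on some mutant arrays. It passed the filter only through the brighter N2 group, so its interval is drawn but not read.

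Transcription factors that set the identity of serotonin and dopamine neurons were examined last. Of 7 such genes 0 were called, and all 7 intervals lay within a fold change of 1.5. The lowest was *ceh-20*, a Pbx-type homeodomain gene, at -0.17, where the fit dropped mutant replicate 1 because its spot was marked as an outlier. With that spot kept *ceh-20* was at -0.07, and in the deposited table it was at -0.03. It was at -0.0069 with array weights and -0.04 without N2 replicate 1 or with a replicate block. The size of its change thus rests on these choices. The highest was *unc-86*, a POU homeodomain gene of serotonin neurons, at 0.10 (95% interval -0.13 to 0.34).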

How the data were processed

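Per spot, the authors deposited a background-corrected intensity from Agilent Feature Extraction 10.7.3.1, and besides it a log2 table that matched quantile-normalized intensities of the same arrays. Here each array's 75th percentile was subtracted from its log2 intensities, control and outlier spots were left out, and spots of a probe were averaged. Probes needed 4 of 8 arrays well above background. They entered two-sided tests in limma 3.58.1 under R 4.3.3 (lmFit, eBayes, Benjamini-Hochberg adjustment), singly and as gene means, with a threshold of adjusted p 0.05 and fold change 1.5. The fit was tested on simulated data. Single genes were also tested by exact permutation over the 70 assignments. Genes were named through sequence names and RefSeq transcripts (34266 of 43603 probes).

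The genes and lists were chosen with earlier results of these data known. Named are all 8 genes, in each other list the genes past the threshold and those with the lowest and highest log2 fold change, genes with no tested probe, *cat-4*, *basl-1*, *aptf-1*, *flp-11*, and the 3 genes most alike to *cat-1*, *tph-1* and *dat-1*. *comt-5*, *ser-1* and *lgc-53* are the lowest of their lists. Alternatives were other scalings, normexp background correction (offset 50, on median spot intensities), other filters, all outlier spots retained, a trended and robust eBayes, array weights, slide or replicate number as a block, the deposited log2 table, other thresholds, and each array left out. Those for *cat-4*, *basl-1*, the extreme genes and the count of intervals were chosen after seeing the data. The labels give growth at 21.5°C, which differs from the temperature in the study's general methods for worm maintenance. The larval arrays of the study were not analysed here.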

Additional observations from a re-analysis of the deposited data

Results flagged for a closer look

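The dopamine-gated channel gene *lgc-53* was singled out for a sample far from the others of its group. Mutant replicate 3 measured -1.37, while the other 3 mutant samples lay between -1.11 and -1.06, and its gap to the nearest was 0.859 of the range of the group. It was the only such case among 74 groups of 4 values, from the probes of the 8 genes and from gene means. *tbh-1*, *mod-5* and *dat-1*, with 1 probe each, entered with the same values as probe and as gene mean. *ceh-20*, which lacks a value on an array, was not compared. Chance gives such a case in about 1 in 20 groups, and the genes share the arrays. None of the 8 synthesis and transport genes had such a sample in either genotype.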

How the results depend on the processing

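Of the 15 probes, 0 were called under all 22 alternatives. Over 20 alternatives per gene, 139 of 160 log2 fold changes of the 8 genes kept their sign and 0 were past the threshold, with a lowest adjusted p of 0.676 from limma and a largest change of 0.20. *cat-2* (-0.20 to -0.05), *bas-1* (0.05 to 0.10) and *tdc-1* (0.02 to 0.09) kept their sign throughout. So did *lgc-53* (-0.26 to -0.16), *octr-1* (-0.19 to -0.11), *ser-5* (0.03 to 0.12) and *unc-86* (0.06 to 0.19). The sign also held for *comt-5*, *hdl-1*, *amx-1*, *ceh-20*, *dop-4* and *ser-1*, some with values near 0. All of the latter were named as extremes of their lists, and the alternatives reuse the same 8 arrays, so a kept sign adds little. *ser-1* could not be tested with the filter on all 8 arrays. The count of intervals within a fold change of 1.5 was 7 or 8. The exception was *dat-1*, with median scaling (-0.56 to 0.60) and without mutant replicate 1, 2 or 3 or N2 replicate 2.

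Some signs turned, also of *basl-1*, *cat-4* and *tyra-2*, whose main values were -0.13, -0.08 and 0.12. With normexp and the 75th percentile, *cat-1* was -0.0231, *mod-5* -0.0241 and *dat-1* -0.0788. With normexp and quantile normalization they were -0.0182, -0.0367 and -0.0742. Array weights gave *cat-1* -0.0451, *tbh-1* 0.0410, *mod-5* -0.0283, *cat-4* 0.243, *basl-1* 0.00346 and *tyra-2* -0.0190. Without a filter *basl-1* was 0.0497, and with probes well above background on all 8 arrays -0.380. Leaving out 1 array at a time gave ranges of -0.0120 to 0.0721 for *tph-1*, -0.0482 to 0.0651 for *cat-1*, -0.0888 to 0.00825 for *tbh-1*, -0.0105 to 0.156 for *mod-5*, -0.154 (without N2 replicate 1) to 0.189 (without N2 replicate 4) for *dat-1*, -0.253 to 0.176 for *cat-4* and -0.137 to 0.299 for *tyra-2*. The cause was not tested.

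Over all probes, 38 were called under array weights, 11 with slide as the block, 264 at an unadjusted p with the fold threshold, and 4 to 14 with an array left out. Over all genes, 12 were called with array weights and 105 at an unadjusted p with the fold threshold. A replicate block left 0 probes called, with a lowest adjusted p of 0.0524 by limma, and 5 genes. Samples of one number had correlated deviations of 0.52, 0.28, -0.12 and 0.09, so the numbers were not taken as pairs. The *dat-1* and *cat-4* spreads and the dim *mod-5*, *basl-1*, *hdl-1* and *ser-1* spots limit what these arrays can show.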
